A study of Mus musculus with 2 samples.

Results

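The genes described here are 8 costimulatory molecules of T cells: the TNF receptor family members Tnfrsf4 (OX40), Tnfrsf9 (4-1BB), Tnfrsf18 (GITR) and Cd27, the CD28 family members Icos and Cd28, and the TNF family ligands Cd40lg (CD40 ligand) and Tnfsf8 (CD30 ligand). They were chosen by name among the 32285 features of both count matrices, and all 8 were found. They were followed in droplet single-cell RNA profiles of mouse liver tumours (hepatocellular carcinoma), in 1 library with a control short hairpin RNA (shCtrl, genotype label WT) and 1 library with a hairpin against the splicing factor Srsf10 (shSrsf10). The labels used here give no strain, age, number of animals or promoter of the hairpins. With 1 library per group there is no replicate check and no test between groups. Every interval below is at 95% and covers counting error only.

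A T cell is activated by its antigen receptor together with costimulatory signals from other surface proteins. Cd28 is present on resting T cells and binds Cd80 and Cd86 on antigen-presenting cells, and Icos, its relative, is induced on activation. Cd27 is carried by resting T cells, whereas Tnfrsf4, Tnfrsf9 and Tnfrsf18 are induced by activation and are also made by regulatory T cells, and these TNF receptors signal through TRAF adaptor proteins to NF-kappaB. Cd40lg and Tnfsf8 act in the other direction, as ligands that an activated T cell shows to cells with Cd40 or Tnfrsf8.

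Srsf10, the target of the hairpin, had 5997 UMIs (unique molecular identifiers, counted RNA molecules) over all kept shCtrl barcodes, or 46.5 CPM (UMIs of the gene per 1000000 UMIs of all genes). Over the kept shSrsf10 barcodes it had 2752 UMIs or 22.2 CPM. Within CD8 T barcodes it stood at 84.5 and 51.6 CPM, a log2 ratio of shSrsf10 over shCtrl of -0.71 (-1.22 to -0.17). The log2 ratio was -0.40 (-1.05 to 0.31) in CD4 T and 0.09 (-1.36 to 1.57) in Foxp3 T barcodes, and both intervals held 0. In T barcodes that fell in none of these classes it was at 65.4 and 38.8 CPM, -0.75 (-1.37 to -0.09). The library labelled shSrsf10 had the lower level over all kept barcodes, in CD8 T barcodes and in T barcodes of no class. In CD4 T and Foxp3 T barcodes the counts did not separate the libraries. Epithelial barcodes held 5602 of the 5997 Srsf10 UMIs of shCtrl and 1937 of the 2752 of shSrsf10. Below, pairs of values are in the order shCtrl, then shSrsf10.

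After filtering, 8767 shCtrl and 7030 shSrsf10 barcodes were kept, each barcode standing for about 1 cell. Classes were set by UMIs of a few genes. CD8 T barcodes had at least 2 UMIs of Cd3d, Cd3e and Cd3g, at least 1 of Cd8a and Cd8b1 and 0 of Cd4, and numbered 108 and 1056, with a median of 2688 and 2774 UMIs. CD4 T barcodes had the same Cd3 minimum, at least 1 Cd4 UMI and none of Cd8 or Foxp3, and numbered 92 and 332, with a median of 2119 and 2859 UMIs. Foxp3 T barcodes, with at least 1 Foxp3 UMI, numbered 17 and 20 (median 3801 and 4888 UMIs), and NK barcodes, with no Cd3 UMI and at least 2 of Ncr1, Klrb1c and Klre1, numbered 8 and 30 (median 1185 and 1469 UMIs). Another 126 and 502 T barcodes fell in no class, and 2 shSrsf10 barcodes were in both the CD8 T and Foxp3 T classes.

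All 6 regulatory T cell markers were found in the Foxp3 T barcodes of both libraries, at a summed level of 2612 and 4238 CPM. All 10 NK markers were found in the NK barcodes. The 6 include Foxp3, the 10 include Ncr1, Klrb1c and Klre1, and the T cell markers below include Cd3d, Cd3e and Cd3g. These genes set the classes, so part of these levels was fixed by the class rules. The summed level of 10 general T cell markers was 3600.1 and 7671 CPM in Foxp3 T barcodes, higher in shSrsf10, where it was 8072 and 8165 CPM in CD8 T and 7001 and 8766 CPM in CD4 T barcodes. RNA of other cells also differed between the libraries, and its part in the results was not tested. The summed level of 10 epithelial markers was 5200.2 and 313 CPM in Foxp3 T barcodes, with Epcam at 0 in shCtrl and Apoa1, Apoa2 and Krt8 at 0 in shSrsf10. It was 26603 and 9414 CPM in NK barcodes, with Apoa2 at 0 in shCtrl and Apoa1 in shSrsf10. CD4 T barcodes had 1724 and 544 CPM of the epithelial markers, with none at 0, and 72 and 196 CPM of 6 macrophage markers, with Adgre1 at 0 in both libraries and Csf1r in shCtrl. Their 4 mature dendritic cell markers summed to 173 and 195 CPM, with Ccl22 at 0 in shCtrl, and of these Fscn1 had 1 and 102 UMIs and Ccl22 0 and 46. In CD8 T barcodes, 6 gamma-delta T cell markers summed to 212 and 13.8 CPM, with Trdc, Tcrg-C1, Tcrg-C3 and Trdv4 at 0 in shCtrl and Tcrg-C3 and Trdv4 in shSrsf10. There, 4 neutrophil markers summed to 363 and 8.75 CPM, with Retnlg at 0 in shSrsf10. A UMI of Pdcd1, the inhibitory receptor PD-1, was held by 57.4% and 22.9% of CD8 T and by 47.8% and 45.2% of CD4 T barcodes. The libraries list 67 identical barcode sequences. Leaving these out removed 1 shCtrl and 6 shSrsf10 CD8 T barcodes, and the CD8 T log2 ratios were then -1.54 for Tnfrsf4, -1.95 for Tnfrsf9, -0.87 for Tnfrsf18, 1.37 for Icos and -2.09 for Tnfsf8.

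The members lie on 4 chromosomes of GRCm38. Cd28 (chr1:60716800-60773359, + strand) and Icos (chr1:60977927-61000320, + strand) flank the inhibitory receptor gene Ctla4. Tnfrsf4 (chr4:156013843-156016612) and Tnfrsf18 (chr4:156026164-156028895) are neighbours on the + strand, with 9551 bases between them. Tnfrsf9 (chr4:150914562-150946102, + strand) and Tnfsf8 (chr4:63831308-63861347, - strand) lie on the same chromosome, Cd27 at chr6:125232622-125237010 on the - strand and Cd40lg at chrX:57212143-57224042 on the + strand. The gene Sdf4 ends 232 bases before Tnfrsf4, and the antisense gene Gm16008 (chr4:156022008-156031643, - strand) spans the whole of Tnfrsf18. Whether the counting used strand is not given in the sources used here, so reads of Tnfrsf18 and Gm16008 may not be told apart.

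RefSeq windows upstream of transcript starts, on GRCm38.p6, were matched for 5 members. They are shown because Tnfrsf4, Tnfrsf9, Tnfrsf18 and Tnfsf8 were lower together in shSrsf10 CD8 T barcodes, while Cd27 differed by less than 1.5-fold. Each runs 5′ to 3′ on the strand of its gene and leaves out annotated exon bases, so the stretches have 84 bases for Tnfrsf4, 92 for Tnfrsf18, 187 for Tnfsf8 and 250 for Tnfrsf9 and Cd27. Tnfrsf9 had another window, further into the gene, that is not printed. Capitals mark GGAAA, the core that NFAT factors bind, or its reverse complement TTTCC.
Tnfrsf9 (chr4:150919905-150920154, + strand): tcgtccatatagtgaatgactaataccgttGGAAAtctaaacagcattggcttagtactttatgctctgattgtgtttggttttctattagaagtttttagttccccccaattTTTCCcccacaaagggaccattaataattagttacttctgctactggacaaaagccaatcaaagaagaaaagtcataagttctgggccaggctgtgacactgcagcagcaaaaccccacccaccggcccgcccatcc
Tnfrsf4 (chr4:156013611-156013694, + strand): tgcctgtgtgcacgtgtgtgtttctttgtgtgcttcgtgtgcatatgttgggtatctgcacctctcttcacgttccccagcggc
Tnfrsf18 (chr4:156026072-156026163, + strand): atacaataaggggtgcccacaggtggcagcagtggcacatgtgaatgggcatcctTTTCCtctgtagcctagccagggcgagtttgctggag
Tnfsf8 (chr4:63861348-63861534, - strand): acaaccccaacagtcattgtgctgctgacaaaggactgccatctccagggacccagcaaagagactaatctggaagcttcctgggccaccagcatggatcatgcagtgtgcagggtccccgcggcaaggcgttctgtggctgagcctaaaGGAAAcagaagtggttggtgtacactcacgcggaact
Cd27 (chr6:125237028-125237277, - strand): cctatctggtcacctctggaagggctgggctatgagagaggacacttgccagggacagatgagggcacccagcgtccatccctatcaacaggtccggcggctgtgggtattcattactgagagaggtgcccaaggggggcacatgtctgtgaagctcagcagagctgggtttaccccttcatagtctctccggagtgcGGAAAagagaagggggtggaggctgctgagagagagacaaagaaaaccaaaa
The core was found in the stretches of Tnfrsf9 (on both strands), Tnfrsf18, Tnfsf8 and Cd27 and not in the 84 bases of Tnfrsf4. TGANTCA (the AP-1 motif) and the NF-kappaB motif, which can hold TTTCC, were searched on both strands and had no match. GGAAA was in 55.6% of 32851 RefSeq windows of 250 bases, TGANTCA in 6.75% and the NF-kappaB motif in 0.356%, so a match to the core is common in any such window.

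Among CD8 T barcodes, 4 of the 7 members with at least 20 UMIs were at least 1.5-fold lower in shSrsf10 (Tnfrsf4, Tnfrsf9, Tnfrsf18 and Tnfsf8), 2 were at least 1.5-fold higher (Icos and Cd28) and Cd27 lay between. By the same rule 21.9% of the 8865 genes with 20 UMIs were lower and 21.5% higher. The median log2 ratio was -0.91 over these members and -0.04 over all those genes. Among CD4 T barcodes 2 of 8 members were lower (Tnfrsf9 and Tnfsf8) and 1 higher (Icos), beside 23.4% and 20% of 6681 genes, with medians of -0.30 and -0.03. Among Foxp3 T barcodes 4 of 6 members were higher (Tnfrsf4, Tnfrsf18, Icos and Cd28) and 0 lower, beside 24.2% and 19.9% of 1643 genes, with medians of 0.69 and 0.05. Tnfrsf9 alone had 20 UMIs in NK barcodes and was higher, beside 24.3% of genes higher and 18.7% lower. In T barcodes of no class 1 of 8 members was higher (Cd28) and 2 lower (Tnfrsf9 and Tnfsf8), beside 20% and 19.2% of genes. The shares of members lower in CD8 T and higher in Foxp3 T barcodes were above these backgrounds, and the share lower in CD4 T barcodes was near its own. The general T cell markers were higher in shSrsf10 Foxp3 T barcodes as well, at 3600.1 and 7671 CPM, and their part in the Foxp3 T count was not tested.

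**Figure D1:**
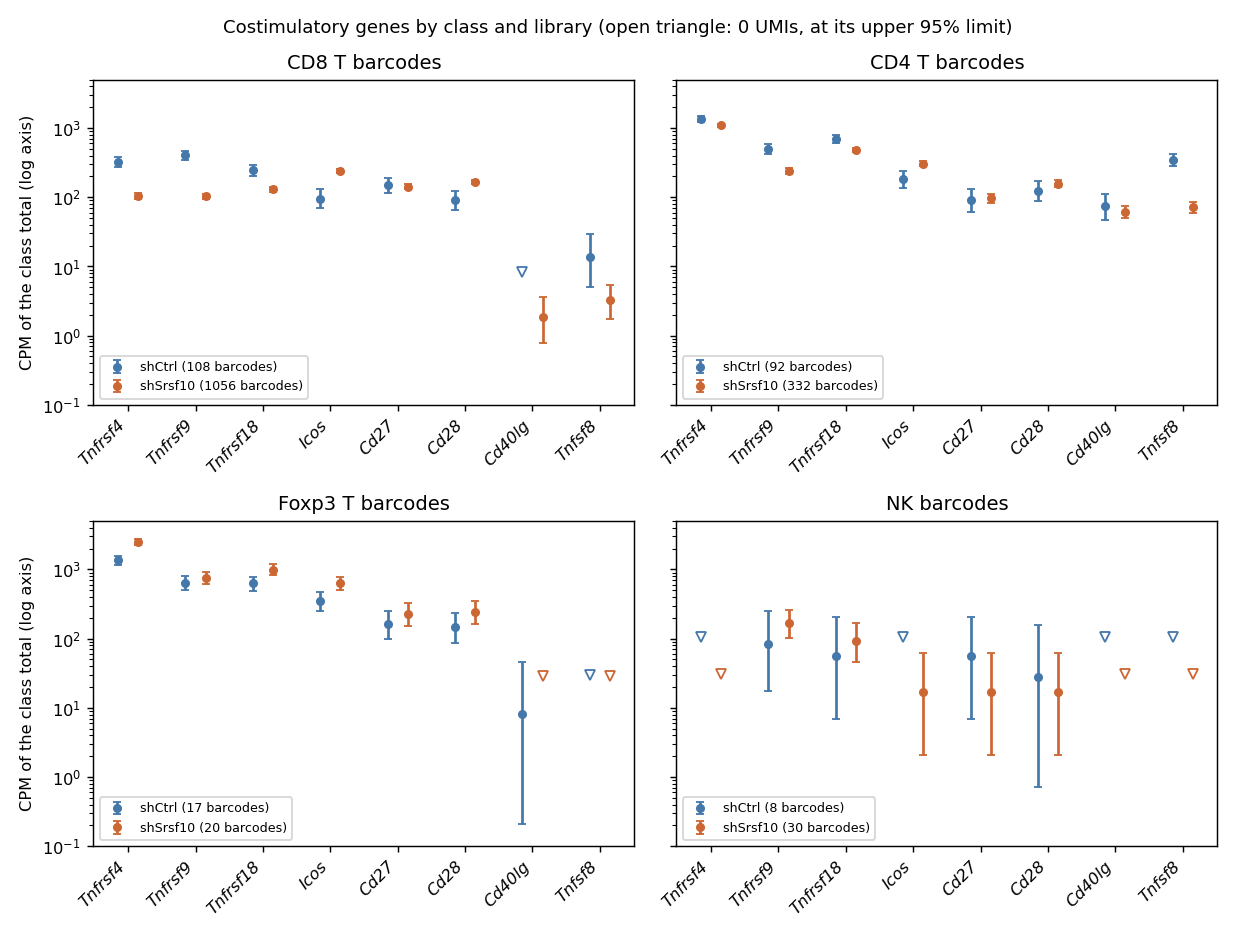
CPM of the class total (log axis) of the 8 members in the 4 classes, in shCtrl (blue) and shSrsf10 (orange), with exact 95% Poisson intervals and open triangles at the upper limit where no UMI was found. Tnfrsf4 stood at 322 and 104 CPM in CD8 T barcodes and at 1355 and 2502 CPM in Foxp3 T barcodes.

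Tnfrsf9, or 4-1BB, a receptor that appears on CD8 T cells after antigen contact and sustains their survival, had 178 UMIs in 61 of the 108 shCtrl CD8 T barcodes, or 406 CPM (349 to 471). In shSrsf10 it had 448 UMIs in 177 of 1056 barcodes, or 103 CPM (93.8 to 113). The log2 ratio was -1.98 (-2.23 to -1.72), a level 3.94-fold lower. The same direction was seen in CD4 T barcodes, with 504 and 242 CPM and a log2 ratio of -1.06 (-1.32 to -0.78), and in T barcodes of no class, with 182 and 68.5 CPM and -1.41 (-1.81 to -1.0). Foxp3 T barcodes had 645 and 758 CPM, and the interval of their ratio, 0.23 (-0.21 to 0.68), held 0. NK barcodes had 3 and 20 UMIs, 84.8 and 169 CPM, and a log2 ratio of 1.0 (-0.75 to 3.39), which these counts do not separate from 0.

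Tnfrsf4, or OX40, which prolongs the response of CD4 T cells, had 141 UMIs in 32 shCtrl CD8 T barcodes, or 322 CPM (271 to 379.7), and 451 UMIs in 78 shSrsf10 barcodes, or 104 CPM (94.5 to 114). The log2 ratio was -1.63 (-1.91 to -1.35). The CD4 T levels of Tnfrsf4 were 1371 and 1096 CPM, -0.32 (-0.48 to -0.17), short of 1.5-fold. Foxp3 T barcodes had 1355 and 2502 CPM, 0.88 (0.61 to 1.16), so the libraries stood in opposite order in CD8 T and Foxp3 T barcodes. T barcodes of no class had 453 and 444 CPM, and no NK barcode held Tnfrsf4, which allows up to 84.8 and 25.4 CPM on a floor of 3 counts.

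The Tnfrsf4 RNA of CD8 T barcodes sat in few of them. In shSrsf10 only 78 barcodes held any and 1 of them held 41 UMIs, and in shCtrl the 11 barcodes with the most held 73% of the UMIs. Icos was spread more widely, with 40.7% of its shSrsf10 UMIs in the top 106 barcodes and 59.5% of its shCtrl UMIs in the top 11. Barcodes that held Tnfrsf4 were deeper, with a median of 6909 UMIs in shSrsf10 against 2656 in those without it, and 5546 against 2083 in shCtrl. Their summed Cd8a and Cd8b1 level was 1380.3 CPM in shSrsf10, against 1494 CPM in barcodes without Tnfrsf4.

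Tnfrsf18, or GITR, whose engagement lowers suppression by regulatory T cells, stood in the same order of libraries as Tnfrsf4 in each T class. CD8 T barcodes had 107 UMIs or 244 CPM (200.2 to 295) in shCtrl and 563 UMIs or 129.6 CPM (119 to 141) in shSrsf10, a log2 ratio of -0.91 (-1.21 to -0.60). CD4 T barcodes had 690.3 and 481 CPM, -0.52 (-0.74 to -0.30), and Foxp3 T barcodes 629 and 993 CPM, 0.66 (0.24 to 1.09). The Foxp3 T value turned to -0.30 in barcodes without a UMI of Mki67 or Top2a, genes of dividing cells. NK barcodes held 2 and 11 UMIs, and T barcodes of no class 234 and 212 CPM.

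Cd27, which is lost from T cells on terminal differentiation, was not separated between the libraries. CD8 T barcodes had 148 CPM (115 to 189) in shCtrl and 142 CPM (131 to 154) in shSrsf10, a log2 ratio of -0.06 (-0.43 to 0.33). In CD4 T barcodes it had 91.6 and 97.3 CPM, 0.09 (-0.49 to 0.72), and Foxp3 T barcodes 163 and 227 CPM, 0.47 (-0.40 to 1.37). Each of these intervals held 0.

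Icos, which supports helper and regulatory T cells, was the member with the highest ratio in CD8 T barcodes. It had 42 UMIs in 28 shCtrl barcodes, or 95.9 CPM (69.1 to 129.6), and 1035 UMIs in 542 shSrsf10 barcodes, or 238 CPM (224 to 253). The log2 ratio was 1.31 (0.87 to 1.79). The CD4 T levels were 183 and 307 CPM, 0.75 (0.35 to 1.17), and Foxp3 T barcodes 351 and 633 CPM, 0.85 (0.30 to 1.42). T barcodes of no class had 184 and 198 CPM, 0.10 (-0.25 to 0.46), with an interval that held 0. The Foxp3 T value was -0.20 as a mean over barcodes of the CPM per barcode, and -0.82 without a Mki67 or Top2a UMI.

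Cd28, the receptor whose signal naive T cells need, had 40 UMIs or 91.3 CPM (65.3 to 124) in shCtrl and 721 UMIs or 166 CPM (154 to 179) in shSrsf10 CD8 T barcodes, a log2 ratio of 0.86 (0.40 to 1.36). T barcodes of no class had 88.7 and 144 CPM, 0.70 (0.21 to 1.22). The intervals held 0 in CD4 T barcodes, with 124 and 158 CPM and 0.34 (-0.15 to 0.87), and in Foxp3 T barcodes, with 147 and 242 CPM and 0.72 (-0.16 to 1.65). The Foxp3 T value rested on 18 and 31 UMIs and was -2.09 without a Mki67 or Top2a UMI.

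Tnfsf8, the ligand of CD30, had the lowest ratio of the members in CD4 T barcodes. CD4 T barcodes had 107 UMIs in 34 of 92 shCtrl barcodes, or 350.1 CPM (287 to 423), and 131 UMIs in 67 of 332 shSrsf10 barcodes, or 71.6 CPM (59.9 to 85). The log2 ratio was -2.29 (-2.67 to -1.91), a level 4.89-fold lower. T barcodes of no class had 81.7 and 20.9 CPM, -1.97 (-2.62 to -1.30). In CD8 T barcodes 6 and 14 UMIs gave -2.09 (-3.56 to -0.42), an interval that holds that of Tnfrsf9. Foxp3 T barcodes had no Tnfsf8 UMI, which allows up to 24.5 and 23.5 CPM.

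Cd40lg, through which helper T cells license dendritic cells and B cells, was not separated between the libraries. CD4 T barcodes had 23 UMIs, or 75.2 CPM (47.7 to 113), and 113 UMIs, or 61.8 CPM (50.9 to 74.3), a log2 ratio of -0.28 (-0.94 to 0.43). T barcodes of no class had 46.7 and 45.1 CPM. No shCtrl CD8 T barcode held it, and 5 shSrsf10 barcodes held 8 UMIs, or 1.84 CPM, below the 6.85 CPM that 3 counts would make in shCtrl, so no ratio is given. Foxp3 T barcodes held 1 and 0 Cd40lg UMIs. NK barcodes had none of Cd40lg or Tnfsf8, 0 and 2 UMIs of Icos, 2 and 2 of Cd27 and 1 and 2 of Cd28, too few to compare.

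**Figure D2:**
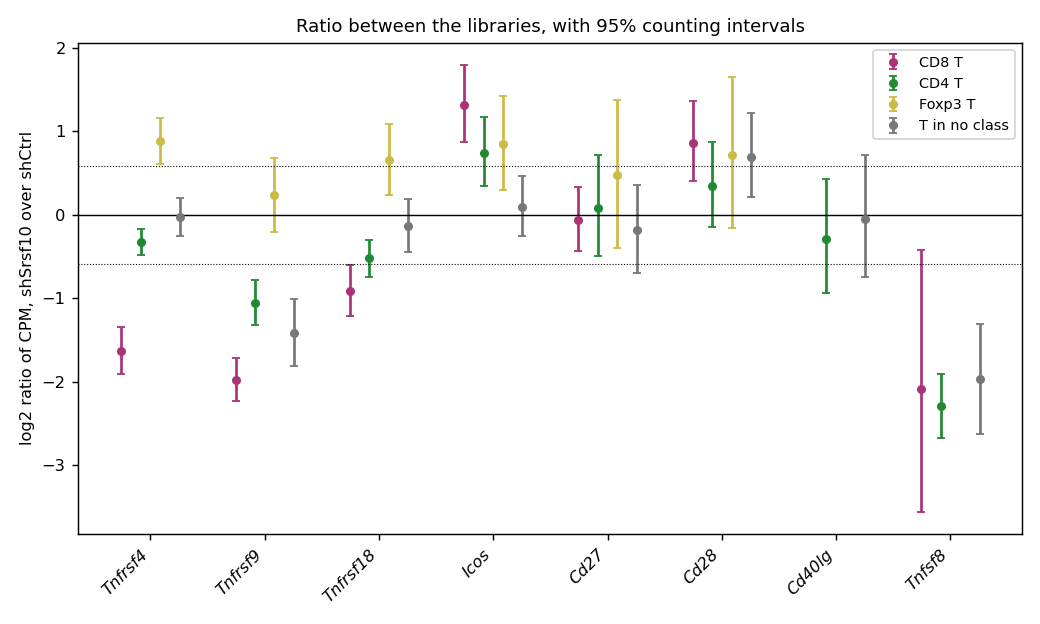
Log2 ratio of CPM in shSrsf10 over shCtrl for members with at least 20 UMIs in the class, with exact 95% intervals for counting error, and dotted lines at 1.5-fold. Tnfrsf9 and Tnfsf8 lie below 0 in CD8 T, CD4 T and unclassed T barcodes, and Tnfrsf4 lies at -1.63 (-1.91 to -1.35) in CD8 T and at 0.88 (0.61 to 1.16) in Foxp3 T barcodes.

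Within a library, the order of the T classes differed by member. For Tnfrsf4 in shCtrl, the log2 ratio of CD4 T over Foxp3 T barcodes was 0.02 (-0.25 to 0.28), no difference beyond counting error, and that of CD8 T over CD4 T barcodes -2.09 (-2.38 to -1.81). In shSrsf10 the order was CD8 T, CD4 T, Foxp3 T, with -3.40 (-3.55 to -3.25) and -1.19 (-1.36 to -1.02) between neighbours. Tnfrsf18 had the same order, with -1.5 (-1.85 to -1.16) and 0.14 (-0.25 to 0.53) in shCtrl and -1.89 (-2.05 to -1.74) and -1.05 (-1.31 to -0.77) in shSrsf10. Neighbouring T classes did not differ beyond counting error for Tnfrsf9 in shCtrl, at -0.31 (-0.63 to 0.01) and -0.36 (-0.76 to 0.05). CD8 T over Foxp3 T barcodes did there, at -0.67 (-1.06 to -0.26). In shSrsf10 the neighbouring T classes differed, at -1.23 (-1.42 to -1.04) and -1.65 (-1.97 to -1.31). NK barcodes lay between CD8 T and CD4 T barcodes in shSrsf10, with intervals that held 0. CD8 T over NK was -0.72 (-1.36 to 0.01) and CD4 T over NK 0.52 (-0.13 to 1.24).

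Icos ran from CD8 T to CD4 T to Foxp3 T barcodes in both libraries, at -0.93 (-1.55 to -0.33) and -0.94 (-1.54 to -0.33) in shCtrl and -0.37 (-0.52 to -0.22) and -1.04 (-1.38 to -0.69) in shSrsf10. Cd27 was higher in CD8 T than in CD4 T barcodes, at 0.70 (0.04 to 1.39) and 0.55 (0.30 to 0.80). For Cd28, CD8 T and CD4 T barcodes did not differ beyond counting error, at -0.44 (-1.12 to 0.23) and 0.08 (-0.12 to 0.28). The ligands were far lower in CD8 T than in CD4 T barcodes, Tnfsf8 by a log2 ratio of -4.68 (-6.15 to -3.51) and -4.47 (-5.38 to -3.68), and Cd40lg by -5.07 (-6.31 to -4.04) in shSrsf10.

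CD8 T barcodes with a Pdcd1 UMI had more of the inducible TNF receptors than those without, in both libraries. They were also deeper, with a median of 4224.5 against 1854.5 UMIs in shCtrl and 3958.5 against 2545.5 in shSrsf10. The part of depth was not tested. Tnfrsf9 was at 520.3 CPM with and 174 CPM without Pdcd1 in shCtrl, a log2 ratio of 1.58 (0.97 to 2.25), and at 233 and 46.3 CPM in shSrsf10, 2.33 (2.04 to 2.63). For Tnfrsf4 the ratio was 0.74 (0.16 to 1.35) and 2.86 (2.55 to 3.19), and for Tnfrsf18 0.92 (0.23 to 1.67) and 0.83 (0.58 to 1.07). Of the barcodes without Pdcd1, 1 held 18 of the 32 Tnfrsf4 UMIs in shCtrl and 1 held 41 of the 108 in shSrsf10. The intervals held 0 for Icos, at 0.13 (-0.86 to 1.19) and 0.02 (-0.18 to 0.21), and for Cd28, at -0.60 (-1.56 to 0.40) and 0.04 (-0.20 to 0.27).

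Since shCtrl CD8 T barcodes held Pdcd1 more often, the libraries were also compared within each stratum. Among the 62 and 242 barcodes with Pdcd1, the log2 ratio of shSrsf10 over shCtrl was -0.51 (-0.83 to -0.19) for Tnfrsf4, -1.16 (-1.44 to -0.87) for Tnfrsf9 and -0.63 (-0.99 to -0.26) for Tnfrsf18. Among the 46 and 814 without it, it was -2.64 (-3.22 to -2.02) for Tnfrsf4, -1.91 (-2.53 to -1.23) for Tnfrsf9 and -0.54 (-1.17 to 0.15) for Tnfrsf18. Single barcodes held 18 of the 32 shCtrl and 41 of the 108 shSrsf10 Tnfrsf4 UMIs there. Both levels thus depend in part on single barcodes, and the ratio of this stratum without them was not computed. Tnfrsf4 and Tnfrsf9 were lower in shSrsf10 in both strata, Tnfrsf4 short of 1.5-fold where Pdcd1 was held. Icos was higher in both, at 1.28 (0.73 to 1.89) and 1.39 (0.61 to 2.31), and Cd28 stood at 1.11 (0.49 to 1.80) and 0.48 (-0.21 to 1.27).

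**Figure D3:**
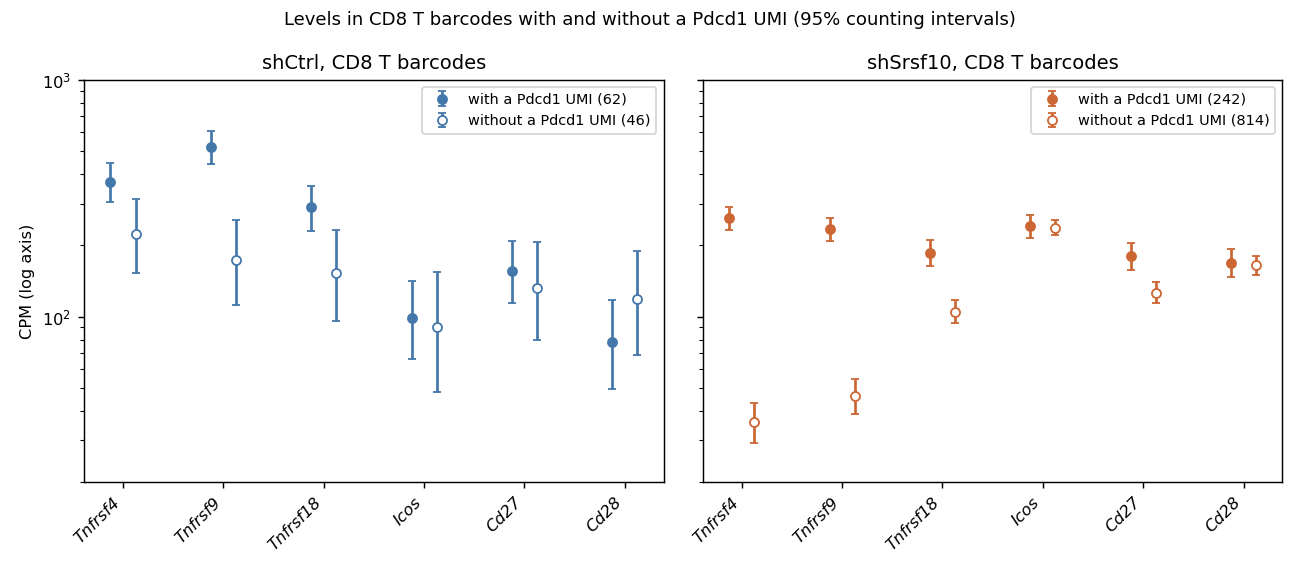
CPM (log axis) of 6 members in CD8 T barcodes with (filled) and without (open) a Pdcd1 UMI, in shCtrl and shSrsf10, with exact 95% Poisson intervals. Tnfrsf9 separates the strata, at 233 and 46.3 CPM in shSrsf10, while Icos lies level there, at 240.2 and 238 CPM.

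CD4 T barcodes with Pdcd1 had more Tnfrsf9 than those without, at 0.88 (0.31 to 1.5) in shCtrl and 1.24 (0.90 to 1.60) in shSrsf10. They had less Cd28, at -1.56 (-2.59 to -0.57) and -1.13 (-1.48 to -0.79), and less Cd40lg, at -1.48 (-2.83 to -0.18) and -1.08 (-1.64 to -0.52). The CD4 T barcodes with Pdcd1 were deeper, with a median of 3844.5 against 1662 UMIs in shCtrl and 4702 against 2234 in shSrsf10. Dividing barcodes, those with a Mki67 or Top2a UMI, made up 37% and 23.9% of CD8 T barcodes. In shSrsf10 they had more Tnfrsf4 than the others, 1.37 (1.07 to 1.66), and less Icos, -0.87 (-1.06 to -0.67), and Cd27, -1.01 (-1.26 to -0.76). In shCtrl these ratios were 0.93 (0.37 to 1.52), -0.48 (-1.42 to 0.47) and -1.02 (-1.78 to -0.27). The dividing barcodes had a median of 5594 UMIs against 1874.5 in shCtrl and 5200.5 against 2438.5 in shSrsf10. Between the libraries, Tnfrsf4 was at -1.35 (-1.68 to -1.02) in dividing barcodes and -1.79 (-2.33 to -1.22) in the others. The part of depth was not tested here either. A gamma-delta receptor constant UMI was held by 22.2% and 2.37% of CD8 T barcodes. Without these barcodes the library ratios were -1.83 (-2.13 to -1.52) for Tnfrsf4, -1.88 (-2.18 to -1.58) for Tnfrsf9, 1.38 (0.86 to 1.95) for Icos and 0.68 (0.18 to 1.22) for Cd28. In the 24 and 25 barcodes with such a UMI they were -0.90 (-1.75 to -0.05) for Tnfrsf4, -2.09 (-2.80 to -1.41) for Tnfrsf9, -0.37 (-1.51 to 0.81) for Icos and -0.08 (-1.64 to 1.64) for Cd28. Tnfrsf4 and Tnfrsf9 were lower in shSrsf10 on both sides, whereas the values of Icos and Cd28 were below 0 in barcodes with such a UMI, with intervals that held 0.

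Shares of barcodes with a UMI were compared after each barcode was thinned at random to 1000 UMIs, which left out 8 and 18 shallower CD8 T and 5 and 8 CD4 T barcodes. Tnfrsf9 was then seen in 25% (16.9 to 34.7) of shCtrl CD8 T barcodes against 5.39% (4.1 to 6.95) for shSrsf10, where the unthinned shares were 56.5% and 16.8%. Tnfrsf4 had thinned shares of 15% (8.65 to 23.5) and 3.37% (2.36 to 4.66), and unthinned shares of 29.6% and 7.39%. Icos had 7.0% (2.86 to 13.9) and 22.3% (19.8 to 24.9), and 25.9% and 51.3% unthinned. Epithelial barcodes, which should lack these 3 genes, had a median of 16019 and 24088 UMIs before thinning. Their thinned shares were 0.0306% and 0.114% for Tnfrsf9, 0.0612% and 0.0286% for Tnfrsf4 and 0.0459% and 0.0572% for Icos, far below those of CD8 T barcodes. Tnfrsf18 was held by 12.6% and 12% of epithelial barcodes before thinning, so they are no such low reference for it. The differences of shSrsf10 minus shCtrl in CD8 T barcodes, in percentage points, were -19.6 (-29 to -12) for Tnfrsf9, -11.6 (-20 to -5.79) for Tnfrsf4, -11.6 (-21 to -3.95) for Tnfrsf18 and 15.3 (8.08 to 19.7) for Icos. For Cd28, 6.65 (-1.65 to 12.5), and Cd27, -4.65 (-13.6 to 2.22), the interval held 0.

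The thinned share of Tnfsf8 in CD4 T barcodes was 18.4% (10.9 to 28.1) and 8.95% (6.08 to 12.6), unthinned 37% and 20.2%. That of Tnfrsf9 differed by -15.8 (-26.5 to -6.38) points and that of Icos by 13.9 (3.01 to 22.8) points. Tnfrsf4 was seen in 60.9% and 56.8% of them, a difference of -4.13 (-15.1 to 7.63) points that the counts do not separate from 0.

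Counted together at this depth, at least 3 of the 8 members were seen in 11% and 2.89% of CD8 T barcodes, 31% and 30.9% of CD4 T barcodes and 68.8% and 63.2% of Foxp3 T barcodes. In shSrsf10 CD8 T barcodes, 14 of the 35 with Tnfrsf4 also held Tnfrsf9, where the product of the shares gives 1.89 barcodes. In shCtrl it was 5 of the 15, where the product gives 3.75. Icos and Cd27 were seen together in 21 shSrsf10 CD8 T barcodes, where the product gives 33.2. In shCtrl they were seen together in 1, where it gives 1.33. Cells of 1 library share their source, so these counts describe the libraries only.

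Other genes of the pathway were read by the same rule, beside the shares of all genes given above: 21.5% higher and 21.9% lower in CD8 T, 20% and 23.4% in CD4 T and 24.2% and 19.9% in Foxp3 T barcodes. Of 9 other costimulatory receptors with 20 UMIs, 2 were higher and 2 lower in CD8 T barcodes, with the adhesion receptor Cd2 at 0.77 (0.51 to 1.04), Tnfrsf1b, a receptor of TNF, at -0.74 (-1.20 to -0.25), and Crtam and Cd84 with intervals that held 0. CD4 T barcodes had 4 of 9 higher and 0 lower, with Slamf1 at 2.65 (0.74 to 5.72) and Cd5 at 0.77 (0.34 to 1.23). Of 7 inhibitory receptors, 3 were lower and 0 higher in CD8 T barcodes: Havcr2 at -1.77 (-2.85 to -0.57), Pdcd1 at -1.36 (-1.65 to -1.06) and Lag3 at -0.93 (-1.29 to -0.55). Ctla4, which competes with Cd28 for its ligands, was at 0.10 (-0.21 to 0.43) there, 0.72 (0.37 to 1.09) in CD4 T and 0.94 (0.64 to 1.25) in Foxp3 T barcodes.

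Of 29 signal proteins of these receptors, 4 were higher and 5 lower in CD8 T barcodes, with a median of -0.24. Traf2, an adaptor of the TNF receptors, was at 2.27 (0.38 to 5.34) and the NF-kappaB subunit Rel at -0.96 (-1.46 to -0.42). In CD4 T barcodes there were 0 of 29 higher and 8 lower, beside 20% and 23.4% of all genes. The share lower was thus near that of all genes, and the share higher below it. The median was -0.46, beside -0.03 over all genes, and 22 of the 29 were below 0. The lowest ratios were those of the adaptor Traf3 at -1.66 (-2.33 to -0.96), the factor Nfatc1 at -1.29 (-1.80 to -0.75) and the NF-kappaB subunit Nfkb1, 285 and 136 CPM, at -1.07 (-1.43 to -0.70). Foxp3 T barcodes had 5 of 10 higher and 0 lower, among them the NF-kappaB feedback genes Nfkbia, at 302 and 782 CPM, and Tnfaip3 at 1.94 (0.31 to 3.98). Among ligands and partner receptors, Cd80, a ligand of Cd28, was at -3.22 (-4.33 to -2.10) in CD8 T barcodes. The 4 mature dendritic cell markers summed to 151 and 38.7 CPM there, and the shCtrl sum was all Ccr7, which T cells also make. Fscn1, Ccl22 and Cacnb3 were at 0 in shCtrl and had 6, 2 and 21 UMIs in shSrsf10. Cd70, the ligand of Cd27, was at -1.17 (-1.76 to -0.54) in CD4 T barcodes.

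Over the 8 points of 4 classes by 2 libraries, the genes whose log2(CPM + 10) followed a member most closely were named among 4052 candidates. The points share libraries and differ in depth, so the Pearson r is a description. Tnfrsf4 was followed by Tipin (0.97), Lbh (0.97) and Inpp4b (0.97), and Tnfrsf9 by the integrin gene Itgav (0.95), Rgs2 (0.94) and Samsn1 (0.94). Tnfrsf18 was followed by Sdf4 (0.98), the gene that ends 232 bases before Tnfrsf4, Calr (0.98) and Izumo1r (0.98). Sdf4 stood at 464 and 233 CPM in CD8 T, 2129.8 and 1454 CPM in CD4 T and 1396 and 1798 CPM in Foxp3 T barcodes. Icos was followed by Manf (0.99), Sept9 (0.99) and Cd2 (0.99), Cd27 by Ssbp4 (0.97), Mrps23 (0.96) and Mrps12 (0.96), and Cd28 by Cotl1 (0.99), Ctss (0.99) and Plekhj1 (0.99). Cd40lg was followed by Lgals7 (0.98), the cytokine gene Csf2 (0.98) and Stfa3 (0.93), and Tnfsf8 by Sostdc1 (0.99), Ms4a6c (0.99) and the TNF family ligand Tnfsf11 (0.99). Among the members, r was 0.97 for Tnfrsf4 and Tnfrsf18, 0.95 for Icos and Cd28 and 0.91 for Cd40lg and Tnfsf8.

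Outside the T classes, Tnfrsf18 stood apart from Tnfrsf4. Epithelial barcodes, with at least 2 UMIs of Krt8 and Krt18 and none of Ptprc or Cd3, held 1162 of 1721 and 651 of 2855 Tnfrsf18 UMIs, but 51 of 998 and 65 of 3897 Tnfrsf4 UMIs. Tnfrsf18 was held by 12.6% and 12% of them, at 9.52 and 6.55 CPM. Of the UMIs of both genes there, Tnfrsf18 made up 95.8% (94.5 to 96.9) in shCtrl and 90.9% (88.6 to 92.9) in shSrsf10. That share was 33.5% (29.8 to 37.3) and 30.5% (28.8 to 32.2) in CD4 T, 31.7% (25.9 to 37.9) and 28.4% (24.3 to 32.8) in Foxp3 T and 43.1% (36.9 to 49.6) and 55.5% (52.4 to 58.6) in CD8 T barcodes, so the ratio of the genes in epithelial barcodes differed from that of each of these classes. Gm16008 lies across Tnfrsf18 on the other strand, and its part in these counts was not tested.

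**Figure D4:**
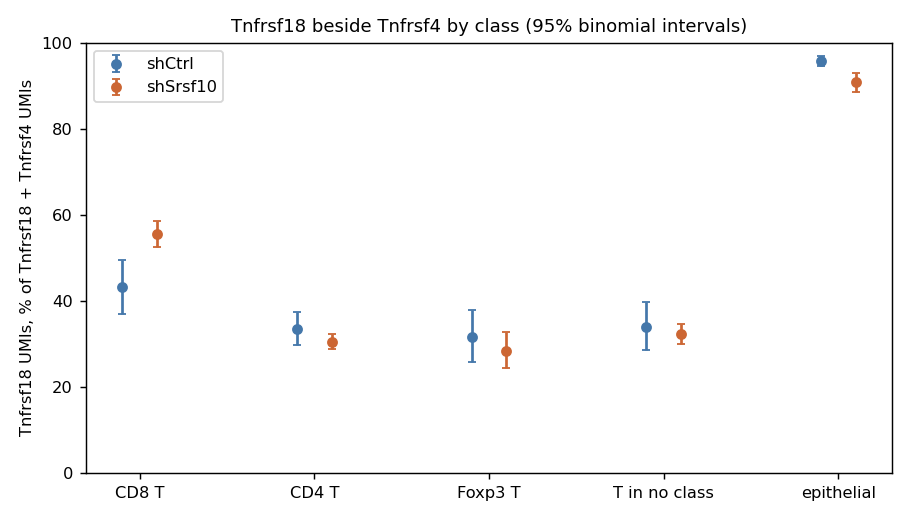
Tnfrsf18 UMIs as a percentage of the Tnfrsf18 and Tnfrsf4 UMIs in CD8 T, CD4 T, Foxp3 T, unclassed T and epithelial barcodes, in shCtrl (blue) and shSrsf10 (orange), with exact 95% binomial intervals. Epithelial barcodes lie at 95.8% (94.5 to 96.9) and 90.9% (88.6 to 92.9), far above the CD4 T barcodes at 33.5% (29.8 to 37.3) and 30.5% (28.8 to 32.2).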

How the data were processed

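Tumour cells of 1 shCtrl and 1 shSrsf10 library were profiled with 10x droplets. The labels conflict on the kit: the series design names a 5′ kit and a flow cytometry sort with no gate stated, and the sample protocol a 3′ version 3 kit after a slow spin of a liver suspension. The authors deposited raw UMI counts, one whole number for each gene in each barcode, made with Cell Ranger 6.1.0 on mm10, per the submitters' processing notes. The files hold 9920 and 7553 barcodes with 143327661 and 136419902 UMIs.

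A barcode was dropped under 200 genes, under 500 UMIs or over 20% of UMIs from mitochondrial genes. The highest Scrublet scores (scanpy 1.11.5), at 0.8% of barcodes per 1000 barcodes, were removed as doublets, 787 and 456. Whether doublets were removed before deposition is not stated. UMIs were summed per library and class and divided by the class total to give CPM, with exact Poisson intervals for a level, exact conditional binomial intervals for a ratio, Clopper-Pearson intervals for a share and Newcombe intervals for a difference of shares. A gene was counted in a class with at least 20 UMIs over both libraries, and called higher or lower past 1.5-fold. A level or share of 0 was given the limit of 3 counts. Intervals came from scipy 1.17.1, and the ratio intervals were checked on simulated data. Leaving out barcodes shared by both libraries was an alternative chosen after seeing the data.

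All 8 members are named in every class, the 3 genes most like each member by Pearson r (at least 50 UMIs in all and 50 CPM in 1 point), and up to 4 genes with the largest ratios of each pathway list. Ctla4 and further list genes were named after their values were seen. The members and lists were chosen with earlier results of these data known. Gene positions came from GENCODE on GRCm38 and upstream sequences from RefSeq. Icos, Cd28 and Cd40lg had no sequence to print. Alternatives changed the doublet and mitochondrial limits, depth, class rules, scaling, weighting of barcodes, thinning, fold and UMI minimum. A further split of the T barcodes is not reported here.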

Additional observations from a re-analysis of the deposited data

Results flagged for a closer look

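Tnfrsf4 and Tnfrsf18 drew attention because the libraries stood in opposite order in different T cell classes, with intervals on opposite sides of 0. The log2 ratio of shSrsf10 over shCtrl was 0.88 for Tnfrsf4 in Foxp3 T barcodes, -1.63 in CD8 T and -0.32 in CD4 T barcodes. For Tnfrsf18 it was 0.66 in Foxp3 T, -0.91 in CD8 T and -0.52 in CD4 T barcodes. The difference between the classes was not tested, since each group is 1 library, and the Foxp3 T values rest on 17 and 20 barcodes. In Foxp3 T barcodes the general T cell markers were also higher in shSrsf10, at 3600.1 and 7671 CPM. The epithelial markers were lower, at 5200.2 and 313 CPM. The part of these differences in the Foxp3 T values was not tested. Tnfrsf18 turned to -0.30 in Foxp3 T barcodes without a Mki67 or Top2a UMI.

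Several members had more UMIs in shSrsf10 barcodes of cell types outside the T and NK classes. Cd28 stood at 137 CPM in the 57 shSrsf10 B barcodes, from 31 UMIs in 11 barcodes. It was at 0 in the 50 shCtrl B barcodes, where 3 counts would make 63.1 CPM. The shSrsf10 level was 2.17-fold that floor, and the interval of the log2 ratio began at 0.74. All 31 UMIs lay in the 21 shSrsf10 B barcodes with at least 3 UMIs of the plasma cell genes Jchain, Mzb1 and Sdc1, genes chosen after the values were seen, and these barcodes held no UMI of Trac, Trbc1 or Trbc2. The shCtrl library had 1 such barcode. In it 3 counts would make 740 CPM, above the 182 CPM of the 21 shSrsf10 barcodes, so no fold is given for these.

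In epithelial barcodes the shSrsf10 levels were 1.70 CPM for Cd28, 0.654 CPM for Tnfrsf4, 0.473 CPM for Tnfrsf9, 0.473 CPM for Icos and 0.171 CPM for Cd27, each above the shCtrl level beyond counting error. Tnfrsf18, the member with the most UMIs there, went the other way. It had 9.52 and 6.55 CPM, a log2 ratio of -0.54 (-0.68 to -0.40). The shSrsf10 library also held more T cell barcodes, and epithelial barcodes held 656 UMIs of T cell receptor constant genes in shSrsf10 and 295 in shCtrl. The part of free T cell RNA in these levels was not tested.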

How the results depend on the processing

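No paired analysis was possible because each group has 1 library. Of 12 values past 1.5-fold with an interval that excluded 0, 10 kept their sign under the alternatives run, with 1 split not counted among them. In that split, the CD8 T barcodes with a gamma-delta receptor constant UMI, Icos was -0.37 and Cd28 -0.08, with intervals that held 0. The other exceptions were in Foxp3 T barcodes: Tnfrsf18 turned to -0.30 and Icos to -0.82 without barcodes that hold Mki67 or Top2a, and Icos to -0.20 as a mean over barcodes. The count of members higher in CD8 T barcodes was 1 without Pdcd1 and 1 at 2-fold, and of lower members 2 with Pdcd1 and 2 without it. The count higher in CD4 T barcodes was 2 with a Cd3 minimum of 1 and without dividing barcodes, and 0 with Pdcd1 and at 2-fold. In Foxp3 T barcodes the count higher was 1 as a mean over barcodes, without dividing barcodes and with Pdcd1, and 0 at 2-fold, and the count lower was 1 as a mean over barcodes, without dividing barcodes and with no UMI minimum. At 2-fold the shares of all genes higher and lower were 12.7% and 9.13% in CD8 T, 8.83% and 11.1% in CD4 T, 11.1% and 9.07% in Foxp3 T and 15.6% and 8.96% in NK barcodes. For the other settings named here no share of all genes was computed, so those counts have no background beside them. Tnfsf8 fell short of 20 UMIs in the Pdcd1 strata of CD8 T barcodes, with 3 and 4 UMIs with Pdcd1 and 3 and 10 without. The difference in share was 0.284 percentage points for Tnfsf8 in CD8 T barcodes at 500 UMIs, and 19.1 at 500 UMIs, 20.3 at 2000 UMIs and 1.18 unthinned for Cd28 in Foxp3 T barcodes, where it was -26.0 at 1000 UMIs. The causes were not tested. The Foxp3 T values rest on 17 and 20 barcodes and the NK values on 8 and 30.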
